A study of Mus musculus with 15 samples.

Results

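The receptor gene Aplnr, its ligand gene Apln, the chemokine gene Cxcl12 and its receptor gene Cxcr4 were followed while mouse embryonic stem (ES) cells were turned into paraxial mesoderm in culture. The 4 genes were given, with earlier results of these arrays known. Each was read through probe sets annotated to it alone, the main one chosen by its mean signal over all 15 arrays and the others kept as a check. They had 7 such probe sets, and all 4 genes were among the 12400 genes that passed the filter on dim probe sets, of 18193 with a probe set. The levels below are therefore a description.

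Aplnr encodes a G protein-coupled receptor that binds the peptides apelin, made from Apln, and Elabela (also called Toddler), made from Apela. In embryos it is known from gastrulating mesoderm, where it is needed for the movement of mesendoderm cells, and from the heart and vessels. Cxcl12 is a secreted chemokine that steers migrating cells such as germ cells, blood progenitors and muscle precursors through Cxcr4, also a G protein-coupled receptor. A second receptor for Cxcl12, Ackr3, takes the chemokine up and removes it.

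There were 5 groups of 3 biological replicates, and the labels do not say more of how replicates were made, so p-values measure the spread between these samples. ES cells of line E14 (strain 129P2) were taken unsorted at day 0 from medium with serum, LIF at 1500 U/ml and the 2i inhibitors CHIRON99021 and PD0325901, on feeders of mouse embryonic fibroblasts. All other groups received BMP4 at 10 ng/ml for 2 days without serum and then 0.5% DMSO, the BMP receptor inhibitor LDN193189 at 0.1 µM in 15% serum replacement, and one Wnt activator. In RDL medium this was Rspo3 at 10 ng/ml, a secreted protein that raises the response to Wnt, and in CDL medium it was CHIRON99021 at 1 µM, an inhibitor of GSK3. The sample labels of CDL day 4 and RDL day 6 write the BMP inhibitor as LDN193191, and those of CDL day 6 as LDN193193. At day 4, E14 cells carrying a reporter of Msgn1, a gene of the presomitic mesoderm, were sorted for the reporter. At day 6, cells of another line, CK35 (strain 129Sv), were sorted for GFP from the Pax3 gene, which marks the anterior presomitic mesoderm, somites and dermomyotome. Day 6 therefore differed from day 4 in line, strain and sort as well as in time, and these cannot be told apart here. Day 4 differed from ES cells also in the sort.

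The 250 bases upstream of the annotated starts are shown for the ligand genes and for Cxcr4. The DNA letters can thus be set side by side for a gene that stayed nearly level, one that rose most after day 4 and one that rose by day 4 and no further. They are from RefSeq on build GRCm38.p6, which matched 3 of the 4 genes: chrX:48034854-48035103 (minus strand) for Apln, chr6:117168285-117168534 (plus strand) for Cxcl12 and chr1:128592300-128592549 (minus strand) for Cxcr4. Aplnr lies at chr2:85136360-85139923 in that build. Capitals mark the GC box GGGCGG, the TATA box TATAAA and the core of hypoxia response elements, ACGTG or GCGTG, each on either strand.
Apln: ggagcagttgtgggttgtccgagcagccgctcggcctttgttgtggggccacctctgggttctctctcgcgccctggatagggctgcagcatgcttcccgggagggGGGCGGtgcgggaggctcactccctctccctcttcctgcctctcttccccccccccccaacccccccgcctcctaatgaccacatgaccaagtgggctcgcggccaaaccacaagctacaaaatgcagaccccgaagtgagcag
Cxcl12: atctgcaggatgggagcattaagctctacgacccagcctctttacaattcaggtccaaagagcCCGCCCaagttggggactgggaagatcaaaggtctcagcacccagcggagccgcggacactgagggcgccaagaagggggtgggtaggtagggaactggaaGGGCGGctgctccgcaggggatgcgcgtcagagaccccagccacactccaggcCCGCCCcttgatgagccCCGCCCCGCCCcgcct
Cxcr4: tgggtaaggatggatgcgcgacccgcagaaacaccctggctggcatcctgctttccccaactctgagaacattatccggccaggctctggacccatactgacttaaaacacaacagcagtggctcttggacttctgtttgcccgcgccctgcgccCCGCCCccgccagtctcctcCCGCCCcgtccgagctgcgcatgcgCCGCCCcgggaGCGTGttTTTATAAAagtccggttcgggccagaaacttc
The GC box occurred 5 times before Cxcl12, 2 of them overlapping by 1 base, 3 times before Cxcr4 and 1 time before Apln, and 32.9% of 27025 promoters of this length held at least 1. The TATA box was found before Cxcr4, where matches on both strands overlapped between 32 and 25 bases upstream of the start (13.0% of all promoters). A GCGTG stood 39 to 35 bases upstream of the Cxcr4 start (38.6% of all promoters held ACGTG or GCGTG). The E-box CANNTG, not in capitals, occurred 3 times before Apln and was held by 66.0% of all promoters. The T-box half-site GGTGTGA, searched because Tbx6 and Brachyury act in this tissue, was not found in these 3 windows and was held by 3.31% of all. These matches are letters in a window and say nothing of binding.

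Signals are MAS5 intensities on a linear scale, in arbitrary units. The median signal of an array was 29.4 at the lowest and 31.2 at the highest, and having 3 arrays a group limits the precision. Differences were computed on log2 of the signal plus 12.6 (each array's 25th percentile, of which the middle value was taken) and fitted with limma over all arrays. Adjusted p-values (Benjamini-Hochberg) cover all 12400 genes, and a gene was called where it was under 0.05. A difference on this scale understates the change of genes with low signal. A probe set's signal depends on its probes, so levels were compared between groups and not between genes. The reporter genes followed the sorts: Msgn1 averaged 29.1 in ES cells, rose to 196 (RDL) and 337 (CDL) in the day 4 sorts and was 28.7 and 43.9 in the day 6 sorts, while Pax3 averaged 58.9, 108, 54.7, 303 and 522 in that sequence. CDL day 4 replicate 1 stood nearer to ES cells than any other sorted array. Of the ES signal of 57 genes that its group mates lacked (ES mean of at least 500 and at least 20 times theirs), a median of 18.6% was left in it. The same measure, over 51 to 87 genes each, was -0.0799% to 0.503% in the other sorted arrays. RDL day 6 replicate 1 correlated least with its group mates (mean r 0.978). Values without these 2 arrays, a choice made after seeing the data, are given where they change the call of a member or move a count of a gene list by over 1.5 times.

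Through its brighter probe set, 1438651_a_at, Aplnr was near the floor of the arrays in ES cells and high at day 4, while its other probe set, 1423037_at, was above the array median on all 3 ES arrays. The signal of 1438651_a_at was 6.22, 5.49 and 5.30 on the ES arrays, below each array's 25th percentile. In RDL at day 4 it was 4006, 3735 and 3930.2, and in CDL at day 4 it was 4167.5, 4691.5 and 4677. In bulk samples fewer cells of a type and less RNA per cell cannot be told apart. The 6 day 4 arrays lay far above the ES arrays and close to one another. The day 6 arrays gave 409, 755 and 602.5 in RDL and 1119.9, 1602 and 984 in CDL. All day 6 arrays lay between those of ES cells and those of day 4, and the groups did not overlap in any pair.

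On the log2 scale Aplnr was 7.74 higher in RDL day 4 than in ES cells and 7.95 higher in CDL day 4 through 1438651_a_at. At day 6 the differences from ES cells were 5.00 in RDL and 6.06 in CDL. These are given as a description, with no test, because Aplnr was known beforehand as one of the largest differences. Their size is not fixed by the data, since the ES signal of this probe set lay below the 25th percentile. With a constant of 1 in place of 12.6 the day 4 differences were 9.19 and 9.40, with 50 they were 6.14 and 6.35, and through 1423037_at they were 2.19 and 2.44. All were above 0. After day 4 Aplnr fell by 2.74 ± 0.18 (SE) in RDL (limma adjusted p = 1.18e-08) and by 1.89 ± 0.18 in CDL (adjusted p = 8.19e-07), leaving 15.1% and 27.4% of the day 4 signal.

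The media did not separate Aplnr clearly at day 4, and did at day 6. At day 4 the CDL arrays lay just above the RDL arrays, and the difference was 0.21 ± 0.18 (adjusted p = 0.691, 95% interval -0.18 to 0.60). At day 6 Aplnr was 1.06 ± 0.18 higher in CDL than in RDL (adjusted p = 0.00145), a 2.10-fold ratio of mean signals. With only the 6 arrays compared in the fit the adjusted p was 0.0553. The difference between these differences was 0.85 ± 0.26 and was not called (adjusted p = 0.0777). It was called with the replicate number as a block (adjusted p = 0.0456), and when RDL day 6 replicate 2 (1.05, adjusted p = 0.0194) or CDL day 6 replicate 3 (1.00, adjusted p = 0.0478) was left out. The order of the levels was thus ES cells, RDL day 6, CDL day 6, RDL day 4 and CDL day 4, of which the last pair did not overlap but were not told apart by the test.

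**Figure D1:**
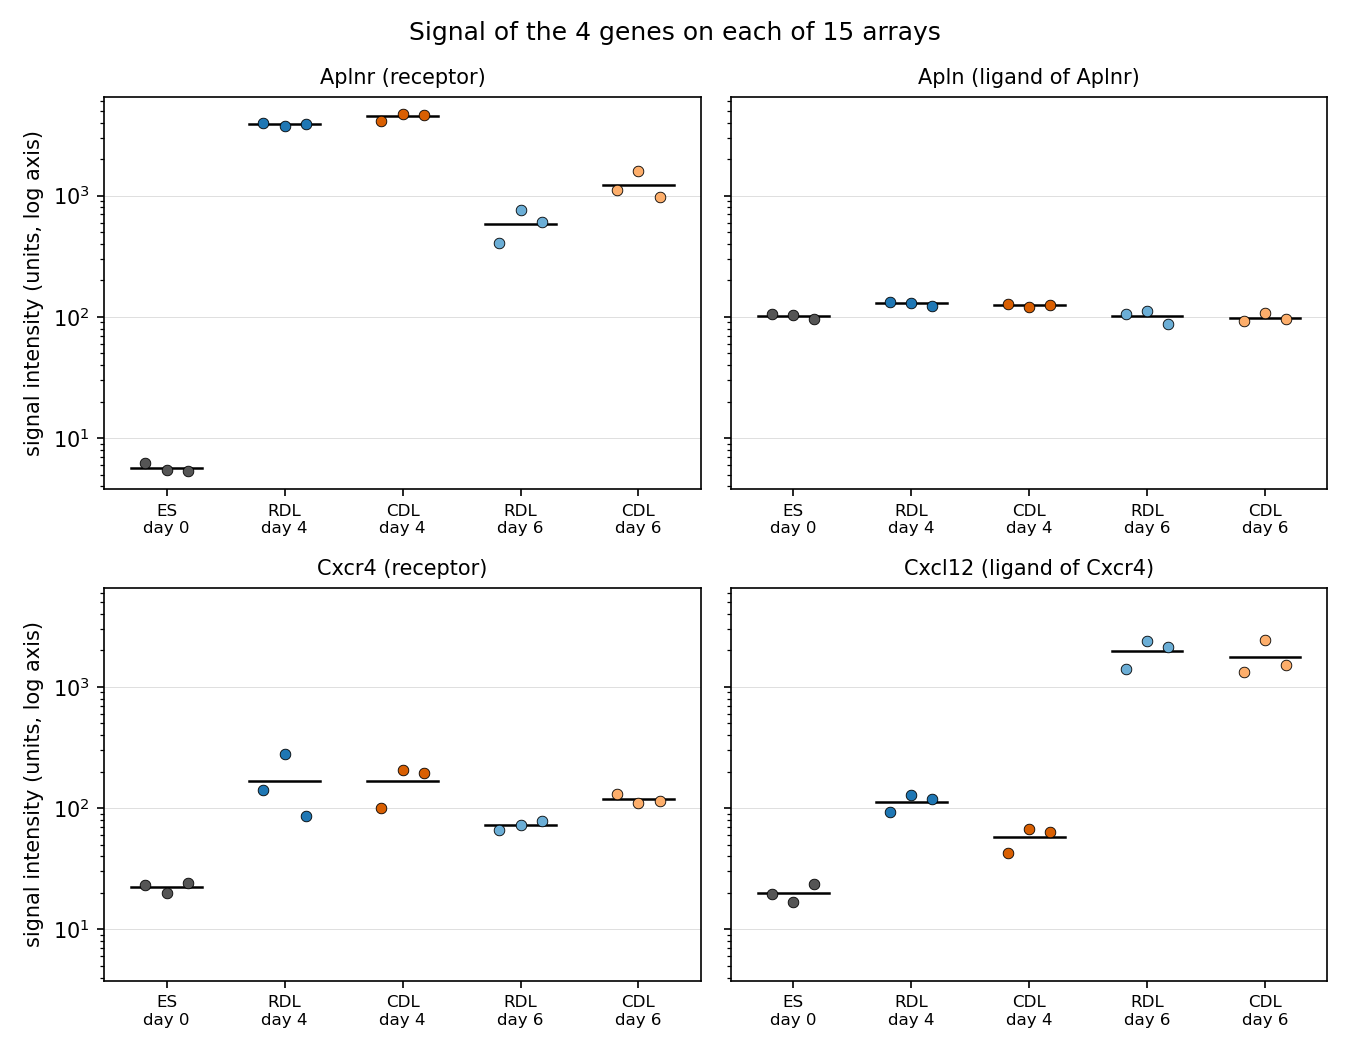
Signal of Aplnr, Apln, Cxcr4 and Cxcl12 (log axis, arbitrary units) on each array, by group, with 3 points per group from replicate 1 at the left to replicate 3 at the right and a line at the group mean. Aplnr, through 1438651_a_at, rises from about the floor in ES cells to between 3735 and 4691.5 at day 4, and Apln stays between 87.0 and 134 on all arrays. Cxcl12 rises most after day 4, to between 1327 and 2461 at day 6.

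The other Aplnr probe set, 1423037_at, showed the same order of groups over a much smaller range. Its signal was 36.3, 46.0 and 33.5 in ES cells, 200.3, 228 and 231 in RDL at day 4 and 243, 291 and 259 in CDL at day 4. The day 6 values were 65.6, 57.1 and 44.0 in RDL and 75.1, 92.4 and 61.7 in CDL. ES cells and day 4 did not overlap, while RDL and CDL at day 6 did. The log2 differences of this probe set from ES cells were 0.41 in RDL and 0.79 in CDL at day 6. Through this probe set CDL exceeded RDL at day 6 by 0.38 (adjusted p = 0.142), so the call for the media rests on 1438651_a_at.

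Apln, the gene of the apelin peptide, hardly moved while its receptor did. It was 106, 103 and 96.0 in ES cells, 134, 129.7 and 124 in RDL day 4, and 128, 121 and 126 in CDL day 4. In the day 6 sorts it was 105, 111 and 87.0 in RDL and 92.9, 108 and 95.4 in CDL. The day 4 arrays all lay above the others, by little, and the day 6 arrays overlapped those of ES cells. The differences from ES cells were 0.31 ± 0.10 in RDL day 4 (limma adjusted p = 0.0133) and 0.27 ± 0.10 in CDL day 4 (adjusted p = 0.0297), or 1.27-fold and 1.23-fold. At day 6 Apln was 0.32 ± 0.10 lower than at day 4 in RDL (adjusted p = 0.0203) and 0.31 ± 0.10 lower in CDL (adjusted p = 0.0214).

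These small changes of Apln were called or not depending on single arrays. Without ES replicate 3 the RDL difference from ES cells was 0.27 (adjusted p = 0.0528). The CDL difference from ES cells was not called without ES replicate 2 or 3, or without any 1 of the CDL day 4 arrays (0.23 to 0.29, adjusted p 0.0514 to 0.0993). The fall in RDL was not called without RDL day 4 replicate 1 or 2 or RDL day 6 replicate 3 (-0.32 to -0.23, adjusted p 0.0587 to 0.102). The fall in CDL was not called without CDL day 4 replicate 1 or 3 or CDL day 6 replicate 1 or 3 (-0.30 to -0.27, adjusted p 0.0503 to 0.0825). Between the media Apln differed by -0.04 at day 4 (95% interval -0.25 to 0.17) and by -0.03 at day 6 (-0.24 to 0.18), neither called. In the order CDL day 6, RDL day 6, ES cells, CDL day 4 and RDL day 4, the first 3 did not differ beyond their spread, nor did the last 2.

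Apela, the other ligand gene of the receptor, went the opposite way to Aplnr from ES cells to day 4. It was 1149, 1144 and 1221 in ES cells, 74.0, 76.4 and 77.8 in RDL day 4, and 273, 55.1 and 50.2 in CDL day 4. The 1 high array in CDL day 4 was replicate 1, the array that held 18.6% of the ES signal over genes bright in ES cells. By day 6 it was 112, 83.9 and 82.1 in RDL and 107, 92.1 and 132 in CDL. Every sorted array was below every ES array. Between the days, where Aplnr fell, no difference of Apela was called by limma (0.24 in RDL and 0.19 in CDL). The difference of Apela from ES cells was -3.74 ± 0.38 in RDL day 4 (adjusted p = 4.6e-07) and -3.47 ± 0.38 in CDL day 4 (adjusted p = 1.26e-06), or -4.18 without CDL day 4 replicate 1. A second probe set of Apela, 1442571_at, was below the array median on every array.

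Of 5 genes listed as partners of the apelin system, 4 were tested here. In RDL day 4 against ES cells 1 rose and 3 fell, with a median difference of -2.17 against -0.01 over all genes. In CDL day 4 against ES cells 1 rose and 2 fell, or 3 without the arrays that stood apart. Among all genes 57.1% in RDL and 56.2% in CDL were called in either direction. Furin, a convertase known to cut proapelin, rose by 0.87 ± 0.14 in RDL day 4 (adjusted p = 8.12e-05) and by 1.26 ± 0.14 in CDL day 4 (adjusted p = 1.89e-06), from 90.5 to 176 and 235. By day 6 Furin had fallen again, to 114 and 111 (adjusted p = 0.00492 and 5.22e-05). Mme, which encodes neprilysin, a peptidase that degrades apelin, fell from a mean of 716 in ES cells to 44.0 in RDL day 4 (-3.70 ± 0.37, adjusted p = 3.26e-07) and 53.3 ± 57.7 (SD, n = 3) in CDL day 4 (-3.81 ± 0.37, adjusted p = 2.95e-07). Pcsk1, another prohormone convertase, was dim, with means of 30.5 in ES cells and 14.3 to 26.3 elsewhere, and was 0.49 higher in CDL than in RDL at day 4 (adjusted p = 0.00422).

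Cxcl12 rose by day 4, 5.66-fold in RDL and 2.90-fold in CDL by mean signal, and more steeply from day 4 to day 6 in both media. It was 19.7, 16.9 and 23.4 in ES cells. In RDL day 4 it was 92.6, 129 and 118, and in CDL day 4 it was 42.8, 67.6 and 64.0. Every day 4 array was above every ES array, and the CDL arrays were below the RDL arrays, with replicate 1 the lowest. Day 6 brought it to 1414, 2406.5 and 2132 in RDL and 1327, 2461 and 1529.7 in CDL. The day 6 groups overlapped each other and lay an order of magnitude above day 4.

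Against ES cells Cxcl12 was 1.94 ± 0.23 higher in RDL day 4 (limma adjusted p = 2.17e-06) and 1.10 ± 0.23 higher in CDL day 4 (adjusted p = 0.000656). Cxcl12 was above the array median on 0 of the 3 ES arrays and passed the filter only through sorted arrays. The filter thus favoured a rise from ES cells, and the p-values against ES cells are no independent support for it. From day 4 to day 6 it rose by 3.96 ± 0.23 in RDL (adjusted p = 1.93e-09) and by 4.63 ± 0.23 in CDL (adjusted p = 2.52e-10), rank 14 and rank 5 among the increases of 12400 genes, and 17.5-fold and 30.5-fold in mean signal. Against ES cells at day 6 it was 5.91 and 5.73 higher (adjusted p = 5.17e-12 and 8.61e-12). No difference of Cxcl12 between the media was called at day 6 (-0.18 ± 0.23, adjusted p = 0.761, 95% interval -0.66 to 0.31).

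At day 4 Cxcl12 was 0.84 ± 0.23 lower in CDL than in RDL, with an adjusted p of 0.0499 at the edge of the threshold. The call was lost in 11 of the 15 fits that left out an array: each of the ES and day 4 arrays, and replicate 3 of RDL day 6 and of CDL day 6. The differences in these fits were -0.96 to -0.67 and the adjusted p-values 0.0617 to 0.209, the weakest without CDL day 4 replicate 1, the array nearer to ES cells. Without that array and RDL day 6 replicate 1 the difference was -0.67 (adjusted p = 0.063). The difference of the media between the days, 0.66 ± 0.32, was not called (adjusted p = 0.339). The order was ES cells, CDL day 4, RDL day 4, CDL day 6 and RDL day 6, of which the last pair overlapped and the day 4 pair differed only as just given.

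Of the other probe sets of Cxcl12, 1448823_at showed the same late rise and 1439084_at showed none. Through 1448823_at the signal was 18.1, 16.5 and 18.9 in ES cells, 53.7, 83.7 and 80.8 in RDL day 4 and 26.5, 48.7 and 52.0 in CDL day 4. It was 612, 885 and 919 in RDL day 6 and 718, 1135.5 and 949 in CDL day 6. The day 6 arrays were again far above day 4, and at day 4 the media differed by -0.65 (adjusted p = 0.123). Probe set 1439084_at had means between 19.0 and 23.3 in all 5 groups, was below the median on all 15 arrays, and no difference between groups was called (adjusted p 0.117 to 0.908).

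**Figure D2:**
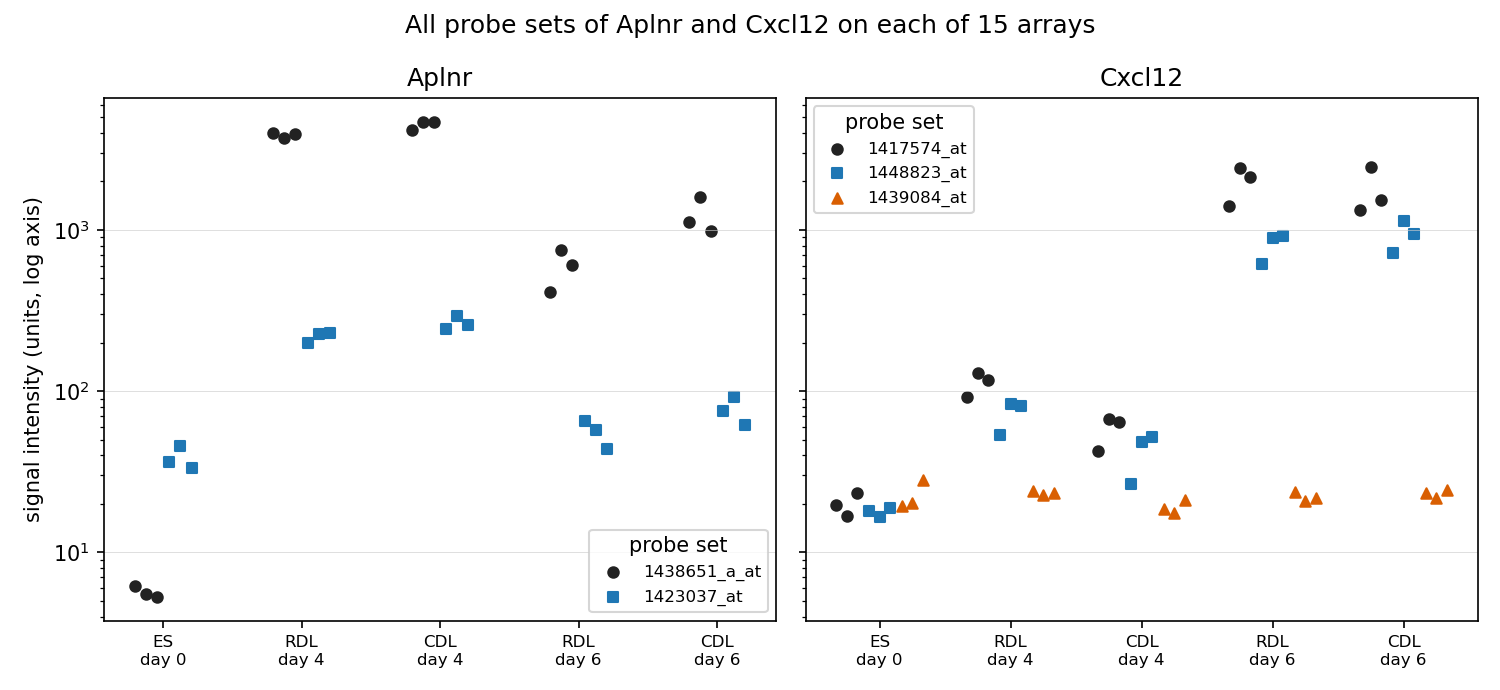
Signal of both Aplnr probe sets and all 3 Cxcl12 probe sets (log axis, arbitrary units) on each array, by group. The brightest probe set of each gene, in black, and the second share the order of day 4 and day 6, while 1439084_at of Cxcl12 stays between 17.5 and 28.2 on every array.

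Cxcr4 rose by day 4 and stayed above ES cells at day 6. At day 4 it had the widest spread between replicates of the 4 genes on the log2 scale (SD 0.78 in RDL and 0.53 in CDL). At day 6 its SD was 0.11 and 0.12, below those of Aplnr and Cxcl12. It was 23.3, 19.7 and 24.0 in ES cells, 140.1, 279.6 and 86.6 in RDL day 4, and 101, 208 and 194 in CDL day 4. Later, at day 6, it was 65.8, 72.9 and 78.2 in RDL and 132, 110.2 and 115 in CDL. All sorted arrays lay above the ES arrays, the day 4 groups overlapped each other, and the RDL day 6 arrays were the lowest of the sorted ones. Cxcr4 had 1 probe set.

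The rise of Cxcr4 against ES cells was 2.23 ± 0.29 in RDL day 4 (limma adjusted p = 7.39e-06) and 2.31 ± 0.29 in CDL day 4 (adjusted p = 5.86e-06). At day 6 it was 1.28 ± 0.29 in RDL (adjusted p = 0.00131) and 1.91 ± 0.29 in CDL (adjusted p = 3.31e-05). Like Cxcl12, Cxcr4 was above the array median on 0 of the 3 ES arrays and passed the filter only through sorted arrays. Its p-values against ES cells are therefore no independent support for a rise. From day 4 to day 6 Cxcr4 fell by 0.95 ± 0.29 in RDL (adjusted p = 0.0217), and it was 0.39 ± 0.29 lower in CDL (adjusted p = 0.306, 95% interval -1.02 to 0.23). The fall in RDL was not called without RDL day 4 replicate 2, its brightest array (-0.54, adjusted p = 0.12), without RDL day 6 replicate 1 (-0.90, adjusted p = 0.0559), or with only the 6 arrays compared in the fit (adjusted p = 0.062).

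Between the media Cxcr4 differed by 0.07 ± 0.29 at day 4 (adjusted p = 0.956, 95% interval -0.55 to 0.70), a difference that ranged from -0.29 to 0.49 when single arrays were left out. At day 6 all CDL arrays were above all RDL arrays, by 0.63 ± 0.29, which was not called in the fit over all arrays (adjusted p = 0.255) and was called when only those 6 arrays were fitted (adjusted p = 0.0261). By mean signal the order was ES cells, RDL day 6, CDL day 6, CDL day 4 and RDL day 4, with the day 4 pair the other way round on the log2 scale. Of these, ES cells differed from their neighbour by the test, the day 6 pair did not overlap but was not called, and the other neighbours overlapped.

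**Figure D3:**
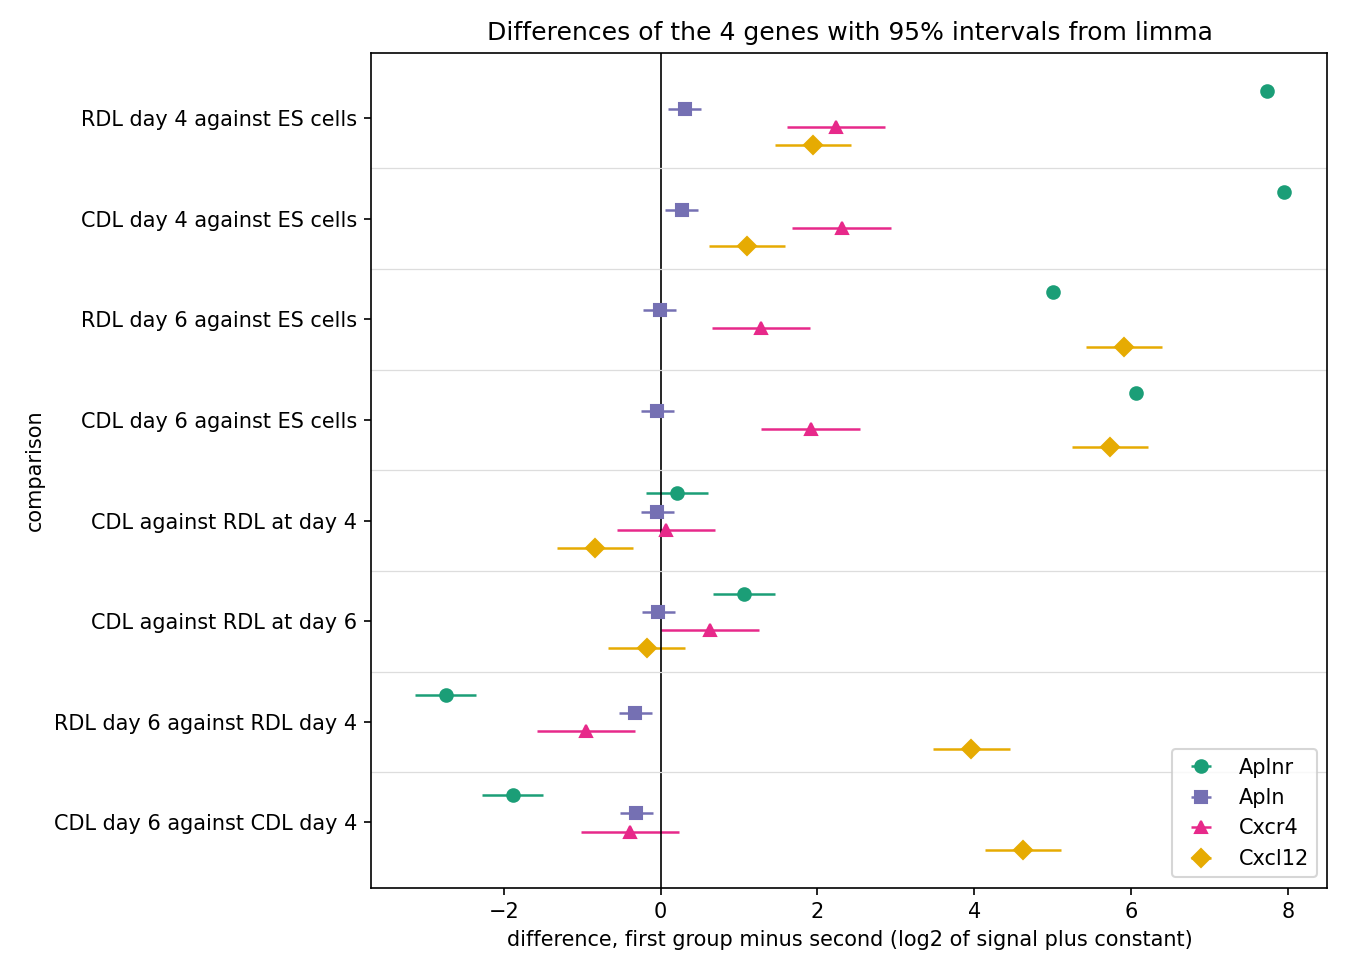
Differences of the 4 genes in 8 comparisons on the log2 scale of signal plus 12.6, first group minus second, with 95% intervals from limma where a test was made (Aplnr against ES cells has points only). Aplnr is lower at day 6 than at day 4 in both media and Cxcl12 is higher, by 3.96 and 4.63, the interval of Cxcr4 between the days in CDL spans 0, and Apln stays within 0.32 of zero in every comparison.

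Counted over the members, all 3 that were tested against ES cells were called at day 4 in both media, where 57.1% of all genes were called in RDL and 56.2% in CDL. The arrays did not overlap for 4 of 4 members in either, as for 69.8% and 70.4% of all genes. In the day 6 comparisons with ES cells 2 of 3 were called in each medium (61.6% and 61% of all genes), and 3 of 4 did not overlap (67.2% and 68% of all genes). These shares are near those of all genes. Aplnr, Cxcl12 and Cxcr4 passed the filter only through sorted arrays, so the counts against ES cells were partly set in advance. From day 4 to day 6, 4 of 4 were called and did not overlap in RDL (31% and 44.2% of all genes), and 3 of 4 in CDL (39.4% and 47.6%). Between the media 1 of 4 was called at day 4 (4.41% of all genes) and 2 of 4 did not overlap (24.5%), and at day 6 1 of 4 was called (7.61%) and 2 of 4 did not overlap (19.9%). For the difference of the media between the days limma called 0 of 4 (5.39% of all genes), and 1 of 4, Aplnr, had an unadjusted p under 0.05. Comparisons against ES cells share the same 3 arrays, and each day 4 group enters its comparisons with ES cells, with the other medium and with day 6.

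Ackr3, the scavenger receptor of Cxcl12, was lowest at day 4. It was 127, 121 and 114 in ES cells, 36.9, 54.0 and 31.4 in RDL day 4, and 36.2, 30.6 and 27.1 in CDL day 4. Its day 6 values were 105, 78.2 and 89.3 in RDL and 108, 111 and 117 in CDL. The day 4 arrays lay below all others. Ackr3 fell by 1.34 ± 0.14 in RDL day 4 (adjusted p = 4.65e-07) and by 1.60 ± 0.14 in CDL day 4 (adjusted p = 8e-08) against ES cells, and rose by 0.97 (adjusted p = 5.81e-05) and 1.51 (adjusted p = 3.87e-07) from day 4 to day 6. In RDL day 6 it was still lower than in ES cells (-0.37, adjusted p = 0.0284), and in CDL day 6 no difference was called (-0.095, adjusted p = 0.575).

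Of 10 genes listed as partners of the Cxcl12 system, among them Mif, Cd74 and 2 integrin subunits, 9 were tested. In each medium at day 4 against ES cells 4 rose and 3 fell (median 0.17 in RDL and 0.08 in CDL, against -0.01 and -0.02 over all genes). Of all genes 57.1% and 56.2% were called in either direction. Gpc3, a heparan sulfate proteoglycan of the cell surface, rose by 3.32 ± 0.09 in RDL (adjusted p = 2.14e-13) and by 2.84 ± 0.09 in CDL (adjusted p = 1.17e-12). It was lower in CDL than in RDL at both days, by 0.49 at day 4 (adjusted p = 0.00576) and 0.51 at day 6 (adjusted p = 0.00258). Sdc1, a syndecan, rose by 2.03 in RDL day 4 (adjusted p = 5.77e-09). Sdc4, another syndecan, differed from ES cells by -3.46 in RDL (adjusted p = 4.06e-07) and -2.78 in CDL (adjusted p = 5.35e-06). Dpp4, the peptidase that clips and inactivates Cxcl12, went from 241 in ES cells to 13.1 in RDL (-3.31, adjusted p = 3.93e-09) and 24.0 in CDL (-2.92, adjusted p = 2.13e-08), and was 15.3 and 17.5 at day 6. Between day 4 and day 6, 3 of the 9 rose and 0 fell in each medium (31% and 39.4% of all genes were called). Without the arrays that stood apart 4 rose in RDL and 5 in CDL. Itga4, a subunit of the integrin VLA-4, rose by 0.69 in RDL (adjusted p = 8.22e-06).

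**Figure D4:**
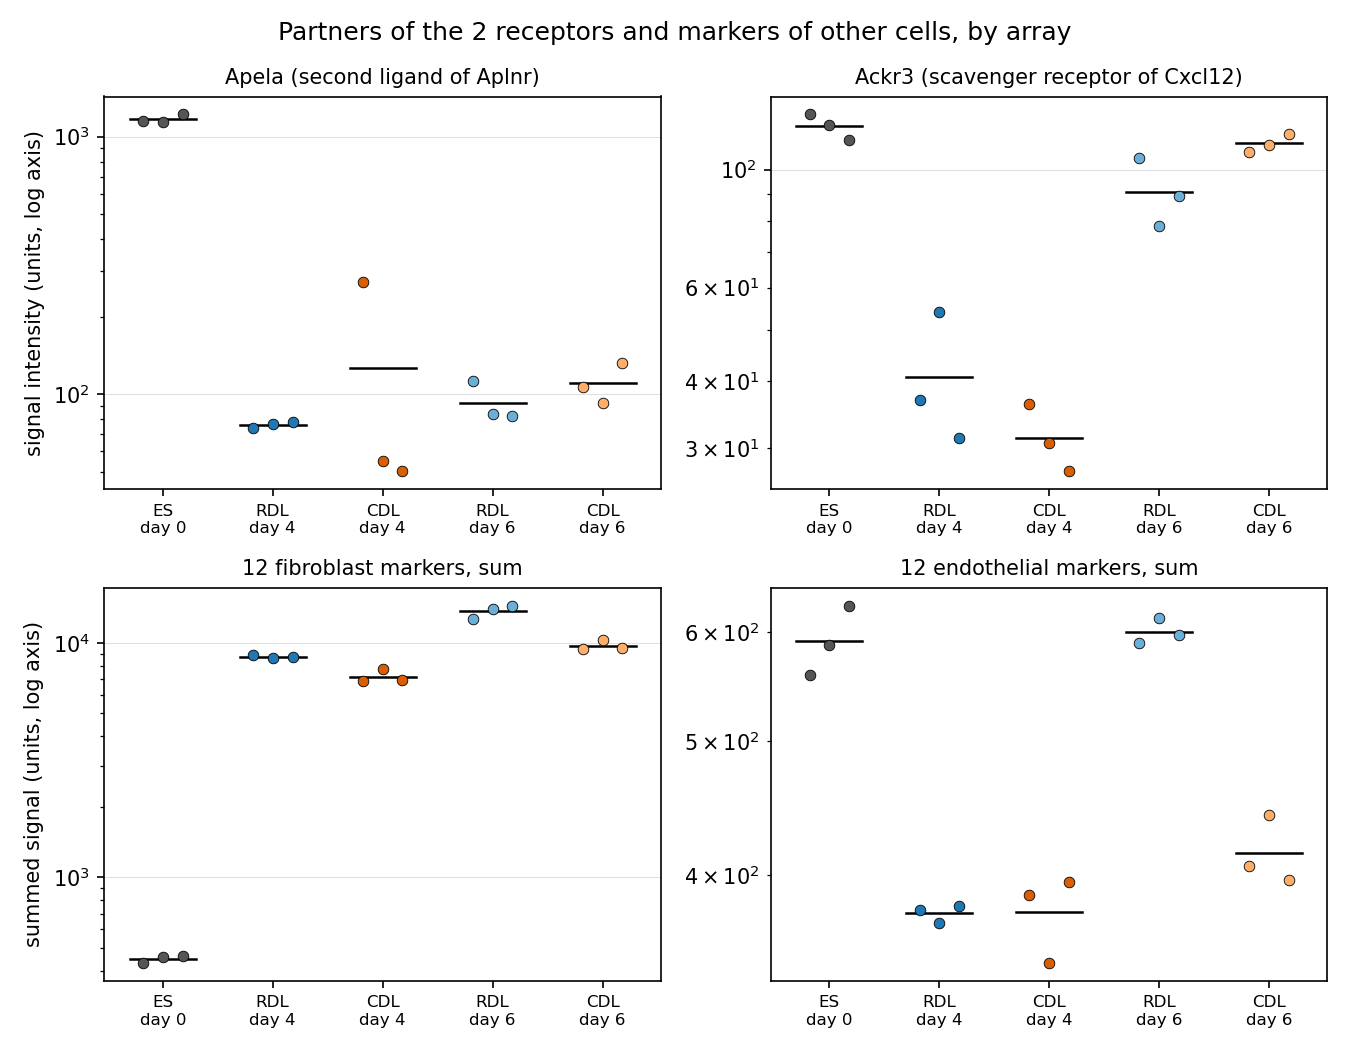
Signal of Apela and Ackr3 and summed signal of 12 fibroblast and 12 endothelial markers on each array (log axes, arbitrary units), with 3 points per group from replicate 1 to replicate 3 and a line at the group mean. Apela is between 1144 and 1221 in ES cells and at most 273 elsewhere, Ackr3 is lowest at day 4, and the fibroblast sum rises from at most 460 in ES cells to at least 12686 in RDL day 6.

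Most other chemokines and chemokine receptors were dim in these cells. Of 35 other chemokines 33 had a probe set and 8 were tested, and of 21 other receptors 19 had one and 4 were tested. Among the chemokines Ccl25 fell from 221 to 53.0 in RDL day 4 (-1.83 ± 0.12, adjusted p = 3.64e-09) and 54.6 in CDL day 4 (-1.80, adjusted p = 5.8e-09). Cxcl17 rose by 0.66 in RDL day 4 (adjusted p = 0.000155) and by 0.71 in CDL day 4 (adjusted p = 8.51e-05), and fell by day 6 (-0.65 and -0.58, adjusted p = 0.000521 and 0.00113). Of the 4 receptors limma called 0 in RDL day 4 against ES cells, with 2 at an unadjusted p under 0.05, and in CDL day 4 1 higher and 1 lower. Without the arrays that stood apart 2 were lower in RDL, and 1 was higher and 0 lower in CDL. Ackr4, a scavenger of other chemokines, fell from day 4 to day 6 by 0.71 in RDL (adjusted p = 0.00119) and by 0.52 in CDL (adjusted p = 0.00851, or -0.40 with 0.0501 without CDL day 4 replicate 2).

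Genes of the G proteins and arrestins that carry signals from such receptors were more often higher than lower at day 4 against ES cells. Of 33 tested, 19 rose and 4 fell in RDL, and 21 rose and 4 fell in CDL, with medians of 0.38 and 0.40 against -0.01 and -0.02 over all genes. Over all genes 57.1% and 56.2% were called in either direction, and the list itself was not tested. Gng12, a G protein gamma subunit, rose by 1.76 ± 0.11 (adjusted p = 2.12e-09) and 1.77 (adjusted p = 2.36e-09). Arrb1, a beta-arrestin, rose by 1.65 ± 0.19 (adjusted p = 1.62e-06) and 1.46 (adjusted p = 6.74e-06), and was 0.77 higher in CDL than in RDL at day 6 (adjusted p = 0.0188, or 0.63 with 0.077 without CDL day 6 replicate 2). Between the days, 5 rose and 7 fell in RDL and 4 rose and 10 fell in CDL (31% and 39.4% of all genes were called). Rgs2, a regulator that shortens G protein signals, rose by 1.86 ± 0.15 in RDL (adjusted p = 1.39e-07) and by 1.31 in CDL (adjusted p = 6.17e-06). Gng11 rose by 1.80 in RDL (adjusted p = 5.25e-07) and was 0.97 lower in CDL than in RDL at day 6 (adjusted p = 0.00132). Between the media at day 4 limma called 0 of the 33, with 4 at an unadjusted p under 0.05.

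Of 37 other guidance ligands and receptors listed, 31 were tested. Of these, 19 rose and 3 fell in RDL day 4 against ES cells, and 18 rose and 4 fell in CDL day 4. The medians were 0.79 and 0.61 against -0.01 and -0.02 over all genes, of which 57.1% and 56.2% were called in either direction. Rspo3, itself the ligand added in RDL medium, rose by 6.02 ± 0.14 in RDL (adjusted p = 3.19e-14) and by 6.37 in CDL (adjusted p = 2.49e-14), and fell again by day 6 (-4.05 and -3.81, adjusted p = 3.64e-12 and 6.13e-12). S1pr3, a receptor of the lipid sphingosine 1-phosphate, rose by 4.37 (adjusted p = 5.02e-13) and 4.61 (adjusted p = 2.86e-13), and Pdgfra, a receptor of platelet-derived growth factors, by 4.32 (adjusted p = 7.11e-12) and 4.55 (adjusted p = 3.67e-12). Kit, the receptor of stem cell factor, fell by 4.90 in RDL day 4 (adjusted p = 3.75e-07). Nrp1, a receptor of semaphorins and VEGF, rose with Cxcl12 from day 4 to day 6, by 3.59 ± 0.22 in RDL (adjusted p = 3.24e-09) and 3.84 in CDL (adjusted p = 1.24e-09).

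The media also differed in some of these guidance genes. At day 4, 1 was higher and 5 were lower in CDL than in RDL, and at day 6, 2 were higher and 6 lower. Among all genes 4.41% were called at day 4 and 7.61% at day 6. Sema3c, a secreted semaphorin, was 1.23 lower at day 4 (adjusted p = 0.000116), Met, the receptor of hepatocyte growth factor that acts in migrating muscle precursors, was 1.19 lower (adjusted p = 0.000103), and Kitl, the ligand of Kit, was 1.14 lower (adjusted p = 0.00105). At day 6 Kitl was 1.97 lower (adjusted p = 2.32e-06) and Pdgfra 1.45 lower (adjusted p = 3.52e-05). Without the 2 arrays that stood apart, 11 were lower in CDL at day 6.

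The genes whose levels followed each member most closely were listed by Pearson's r over the 15 arrays on the log2 scale, as a description in which the arrays share 5 groups. For Aplnr they were Greb1l (0.998), Prtg (0.993), Mogat2 (0.991) and Poglut3 (0.991). Greb1l had mean signals of 42.8 in ES cells, 3244 and 2862 at day 4 and 607 and 1188 at day 6. For Cxcl12 they were Shisa2 (0.994), Col3a1 (0.989), Col26a1 (0.989) and Rragd (0.988). Cxcr4 followed Ccnl1 (0.958), Kif26b (0.936), Nkd1 (0.936) and Crabp1 (0.932) most closely, and its r with Aplnr was 0.917. Apln followed Shank3 (0.911), Ucp1 (0.905), Lfng (0.894) and Sdad1 (0.890). The receptors and their ligands were less alike: r was 0.583 for Aplnr with Apln and 0.251 for Cxcr4 with Cxcl12.

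Markers of other cells that could carry these genes are given beside them. Cxcl12 is also made by fibroblasts, on which the ES cells had been grown. The summed signal of 12 fibroblast markers was 433 to 460 in ES cells, 8595 to 8856.5 in RDL day 4, 6849 to 7711 in CDL day 4, 12686 to 14422 in RDL day 6 and 9418 to 10324 in CDL day 6. The sum was higher at day 6, as Cxcl12 was, while its makeup shifted. From day 4 to day 6, 7 of the 12 rose and 4 fell in RDL, and 6 rose and 4 fell in CDL. At this step 31% and 39.4% of all genes were called in either direction. Acta2 and Tagln, genes of the contractile cytoskeleton, gave most of the summed signal in RDL day 4, with means of 3507 and 4016 and fell by day 6, to 1983 (-0.84, adjusted p = 0.000615) and 1337 (-1.64, adjusted p = 5.7e-06). In CDL they fell from 2425 to 1743 (-0.49, adjusted p = 0.0196) and from 3483 to 1058 (-1.73, adjusted p = 2.53e-06). Col3a1, a collagen also made by mesenchyme, averaged 6794 in RDL day 6 and 4312 in CDL day 6. It rose by 4.63 ± 0.12 in RDL (adjusted p = 3.63e-13) and by 4.41 in CDL (adjusted p = 3.99e-13). Between the media at day 6, where Cxcl12 differed by -0.18, 0 of the 12 were called higher in CDL and 5 lower, and 7 were not called. Of all genes 7.61% were called there. Without the arrays that stood apart 1 was higher and 7 were lower. Lum, a proteoglycan of fibroblasts, had a mean of 224 in RDL day 6 and 38.7 in CDL day 6 (-2.22, adjusted p = 9.89e-08). Dcn, another of the 12, averaged 110 and 94.4. What part such cells had in the rise of Cxcl12 was not tested.

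Aplnr and Cxcr4 are also known from endothelium. The summed signal of 12 endothelial markers was 559 to 627 in ES cells, 369 to 380 in RDL day 4 and 346 to 395 in CDL day 4. The brightest of the 12 in ES cells were Egfl7 (117), Etv2 (91.5), Pecam1 (83.6) and Tek (75.3). Of the 9 tested, 0 rose in either medium at day 4, and 5 fell in RDL and 6 in CDL. Over all genes 57.1% and 56.2% were called there in either direction, so these counts are near those shares. In RDL day 6 against ES cells 4 were higher and 4 lower, and in CDL day 6 0 and 4, with 4 at an unadjusted p under 0.05 (61.6% and 61% of all genes were called). From day 4 to day 6, 6 rose in RDL and 2 in CDL, and 0 fell (31% and 39.4% of all genes were called). Pecam1, at 83.6 in ES cells, was 1.97 and 1.84 lower in RDL and CDL day 4 (adjusted p = 1.79e-10 and 4.55e-10). Tek, at 75.3 in ES cells, was 1.74 and 1.63 lower (adjusted p = 1.27e-10 and 3.08e-10). Others of the list went the other way in RDL day 6. Emcn averaged 8.42 in ES cells, 7.24 in RDL day 4, 42.7 in RDL day 6 and 10.4 in CDL day 6. Plvap averaged 32.1, 27.2, 70.0 and 34.6 in that sequence. Tie1 was below the 25th percentile in all groups. The part of such cells in the levels of Aplnr and Cxcr4 was not tested. In RDL day 6 the sum was 589 to 614 and in CDL day 6 397 to 442, and Kdr was 0.99 lower in CDL than in RDL (adjusted p = 0.000172). Endoderm, which can make Apela and Cxcr4, was followed through 11 markers. Their sums were 677 to 779 in ES cells, 359 to 398 and 415 to 526 at day 4, and 1226 to 1375 and 544 to 593 in RDL and CDL at day 6. Much of the sum in ES cells and RDL day 6 came from Trh. It averaged 319 in ES cells, 72.7 and 162 at day 4, and 613 and 139 at day 6. Hhex averaged 191, 56.8, 63.3, 59.0 and 39.1 in that sequence. Of the 8 tested, 5 rose and 0 fell from day 4 to day 6 in RDL, and 4 rose and 1 fell in CDL. At this step 31% and 39.4% of all genes were called in either direction. Sox17 rose from day 4 to day 6 by 2.34 in RDL (adjusted p = 1.51e-07) and 0.77 in CDL (adjusted p = 0.00532), and Foxa1 by 1.97 (adjusted p = 2.11e-07) and 1.48 (adjusted p = 4.35e-06). Over the same step Cxcr4 did not rise in either medium by the test, and Apela differed by 0.24 (adjusted p = 0.688) and 0.19 (adjusted p = 0.723). The part of endoderm was not tested.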

How the data were processed

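RNA from 15 samples in 5 groups of 3 was amplified with a two-cycle labelling kit and hybridised to Affymetrix mouse arrays, per the labels' protocols. The deposited values are signal intensities per probe set on a linear scale, made by the authors with MAS5, per the submitters' processing notes. Its version, its scaling between arrays and a genome build are not given in the sources used here. Of 45101 probe sets 64 controls were left out, 34945 had 1 gene symbol in the platform annotation, 932 several and 9160 none, and only those with 1 symbol were named. Per gene the probe set with the highest mean over all arrays was used. Genes above an array's 50th percentile on at least 3 arrays were tested (12400, with 5793 dim genes left out). The constant 12.6 was added before log2. Group means of all 15 arrays were fitted with limma 3.58.1 in R 4.3.3 (lmFit, eBayes with an intensity trend), so the groups share 1 estimate of the spread, and p-values were adjusted by Benjamini-Hochberg over the 12400 genes. The code was tested on simulated data. No 2 arrays held identical values.

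The members and gene lists were chosen with earlier results of these data known. The genes named outside the members are, per list and comparison, up to 4 with the largest called difference, Apela and Ackr3, the reporter genes, cell type markers beside a member, and the 4 named genes of highest r with each member. Replicate numbers in the labels were checked for pairing. Residuals of same-numbered arrays correlated at 0.219 to 0.285 between RDL day 4 and RDL day 6 and at 0.106 to 0.275 between RDL day 4 and CDL day 6. In both the own number was the best match for all 3 arrays, so these samples may be paired. The own number was the best match for all 3 arrays also between RDL and CDL day 4 (0.096 to 0.244) and between CDL day 4 and RDL day 6 (0.079 to 0.223) or CDL day 6 (0.072 to 0.139). Between RDL and CDL day 6 the correlations were 0.609, 0.588 and -0.241 for replicates 1, 2 and 3. With ES cells the own number was not always the best match. The main fit did not use the replicate number, so its p-values do not allow for such pairing. The alternatives tried were other constants, filters, scaling, probe sets, spread estimates, the replicate number as a block, and leaving out arrays.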

Additional observations from a re-analysis of the deposited data

Results flagged for a closer look

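For 16 of the genes chosen to be named, the difference between CDL and RDL was not the same at day 4 and day 6 by the limma interaction test over all genes. Each value is the CDL minus RDL difference at day 6 less that at day 4, on the log2 scale, and day 6 used another line, strain and sort. Over all genes tested 5.39% were called. Genes were named partly for called differences in these same arrays, whose values the interaction reuses. The number called was thus partly set by the choice and is not a result about these genes. Other genes of the same lists, not named, were called as well: of all 31 guidance genes tested, 3 were called with a positive value and 4 with a negative one. Without the 2 arrays that stood apart these counts were 4 and 8. Of the guidance genes, Sema3c changed most, by 2.16 (adjusted p = 9.345e-06), from -1.23 at day 4 to 0.93 at day 6. Met changed by 1.02 (adjusted p = 0.00482), from -1.19 to -0.17. Pdgfra changed by -1.68 (adjusted p = 0.000367), from 0.23 to -1.45, and S1pr3 by -0.81 (adjusted p = 0.0192), from 0.24 to -0.57. Of the G protein and arrestin genes, Gng11 changed by -1.32 (adjusted p = 0.003) and Grk3 by -0.56 (adjusted p = 0.0435). Of the partners of the apelin and Cxcl12 systems, Pcsk1 changed by -0.58 (adjusted p = 0.0146) and Itga4 by -0.71 (adjusted p = 0.00152). The chemokine Cxcl13 changed by -0.58 (adjusted p = 0.036). Of the markers of other cells, Lum changed by -2.19 (adjusted p = 8.67e-06), Sox17 by -1.57 (adjusted p = 0.00266), Kdr by -0.82 (adjusted p = 0.0169) and Tek by -0.46 (adjusted p = 0.0361). Of the nascent mesoderm and hypoxia lists, Mixl1 changed by -0.85 (adjusted p = 0.00246) and Egln3 by -1.76 (adjusted p = 3.11e-05). The reporter gene Pax3 changed by 1.61 (adjusted p = 0.000158), from -0.85 to 0.76. The interactions of Cxcl13 and Grk3 were lost when 1 of several arrays was left out, 9 arrays for Cxcl13 and 12 for Grk3, and that of Kdr was lost without RDL day 4 replicate 2 (-0.75, adjusted p = 0.0552).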

How the results depend on the processing

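The called differences of Cxcl12 from ES cells and between the days, of Cxcr4 from ES cells and of Aplnr between the days kept their call under every setting run, apart from the dimmest Cxcl12 probe set; the other results moved as follows, and the cause was not tested. The size of the Aplnr difference from ES cells (RDL and CDL day 4, RDL and CDL day 6) was 9.19, 9.40, 6.42 and 7.50 with a constant of 1, 6.14, 6.35, 3.48 and 4.50 with 50, 4.96, 5.19, 2.70 and 3.43 with the mean of probe sets, and 2.19, 2.44, 0.41 and 0.79 with 1423037_at. Through 1439084_at Cxcl12 differed from ES cells by 0.036, -0.15, -0.013 and 0.031, between the media by -0.18 and 0.044, and between the days by -0.049 (RDL) and 0.18 (CDL). The day 4 media difference of Cxcl12 was not called with a constant of 50 (-0.60), no filter, the 25th percentile filter or no intensity trend (-0.84 each), quantile normalization (-0.83), 1448823_at (-0.65), or both arrays that stood apart left out (-0.67), and leaving out 1 array gave -0.96 to -0.67. Its day 6 counterpart turned to 0.025 with the mean of probe sets and 0.21 with 1448823_at, and ranged from -0.44 to 0.0030 without 1 array. Apln against ES cells at day 4 was not called with quantile normalization (0.24 in RDL, 0.20 in CDL), and in CDL with no filter (0.27) or both arrays out (0.25). Without 1 array it ranged from 0.27 to 0.34 in RDL and 0.23 to 0.30 in CDL. At day 6 the Apln difference from ES cells in RDL ranged from -0.079 to 0.079, that between media from -0.12 to 0.039, and the interaction from -0.077 to 0.081. The fall of Apln was not called with only the groups compared in RDL (-0.32) or quantile normalization in CDL (-0.26), and ranged over -0.39 to -0.23 and -0.37 to -0.27 without 1 array. With only the groups compared, Aplnr between media at day 6 (1.06) and the fall of Cxcr4 in RDL (-0.95) lost the call and Cxcr4 between media at day 6 (0.63) gained it. Through 1423037_at the Aplnr media difference was 0.38. Leaving out 1 array, the fall of Cxcr4 in RDL ranged from -1.32 to -0.54, Cxcr4 between media at day 4 from -0.29 to 0.49, and the Aplnr interaction from 0.62 to 1.05. The replicate block left the Aplnr interaction at 0.85 and gave it a call, and changed no other call of a member. Genes called between media at day 6 numbered 944, 442 with only the groups compared and 1776 with both arrays out (684 to 1512 without 1 array), those at day 4 547 (341 to 797), and interactions 668, or 1237 with both arrays out (482 to 1216). For named genes outside the members, 2544 of 2575 values kept direction and call, 30 lost the call, 1 gained it and 0 turned.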

Other observations

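Genes of mesoderm leaving the primitive streak moved at the same step as Aplnr. Of 11 tested, 9 rose and 0 fell in RDL day 4 against ES cells and 8 rose and 0 fell in CDL day 4. The medians were 2.66 and 3.49 against -0.01 and -0.02 over all genes, of which 57.1% and 56.2% were called in either direction. Mixl1, a homeobox gene of the streak, rose by 4.11 ± 0.10 in RDL (limma adjusted p = 8.98e-14) and by 4.80 in CDL (adjusted p = 2.49e-14). Fgf8, a growth factor of the streak and the presomitic mesoderm, rose by 4.76 (adjusted p = 1.08e-13) and 4.97 (adjusted p = 6.92e-14). From day 4 to day 6, 2 rose and 6 fell in RDL and 1 rose and 7 fell in CDL (31% and 39.4% of all genes were called). Mixl1 then differed by -4.22 and -5.07 (adjusted p = 3.63e-13 and 2.38e-14), and Fgf8 by -4.21 and -4.57 (adjusted p = 9.5e-13 and 3.96e-13). Others of the list did not fall: Pdgfra averaged 983 in RDL day 4 and 2014 in RDL day 6, and Foxc2 312 and 1256 in CDL. The step was not particular to this list. Of 12 presomitic mesoderm genes, among them the sort gene Msgn1, 12 rose by day 4 in each medium. By day 6, 11 fell and 1 rose in RDL, and 10 fell and 0 rose in CDL.

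Genes of the low oxygen response, which are known to act with Apln, Cxcl12 and Cxcr4, did not move in 1 direction. Of 14 tested, 3 rose and 6 fell in RDL day 4 against ES cells (median -0.24) and 4 rose and 6 fell in CDL day 4. Among all genes 57.1% and 56.2% were called in either direction. Bnip3, a mitophagy gene, differed by -2.04 (adjusted p = 2.55e-05) and -1.55 (adjusted p = 0.000376). Egln3, an oxygen sensor, was 1.05 higher in CDL than in RDL at day 4 (adjusted p = 0.000215) and 0.72 lower at day 6 (adjusted p = 0.00284). From day 4 to day 6 in CDL 1 rose and 4 fell (39.4% of all genes were called), and without the arrays that stood apart 6 rose and 4 fell.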
